A study of Rattus norvegicus with 6 samples.

Results

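Cytochromes P450 of families 1 to 3 are the heme enzymes of the endoplasmic reticulum that oxidise most drugs and other foreign chemicals in the liver. The genes described here were taken by symbol, and these families were chosen with earlier results of these data known. They are all the named probe sets of the array whose annotated symbol starts with Cyp1, Cyp2 or Cyp3 followed by a letter, which gave 36 genes of 15037 named genes, each with 1 probe set. They comprised 3 genes of family 1 (Cyp1a1, Cyp1a2 and Cyp1b1), 29 of family 2 and 4 of family 3. Family 2 was represented by 8 Cyp2c, 6 Cyp2b, 5 Cyp2d and 3 Cyp2j genes and by 1 gene each of Cyp2a, Cyp2e, Cyp2f, Cyp2g, Cyp2r, Cyp2s and Cyp2t. Cyp2a1, Cyp2a2 and Cyp3a2 were not analysed here.

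The samples were primary hepatocytes of male Sprague-Dawley rats aged 8 weeks, plated on collagen in medium with serum. Control cells (n = 3) were left untreated, and TMAO cells (n = 3) were exposed to 50 µM trimethylamine N-oxide, a metabolite of choline and related nutrients, for 30 h. Total RNA was labelled and measured on 1 array per sample. By their labels the samples are biological repeats, with no word on which cultures came from the same animal, so p-values measure the spread between these arrays.

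In hepatocytes a P450 takes electrons from the reductase encoded by Por, and for some reactions from cytochrome b5. Many of these genes are switched on by receptors that sense foreign chemicals, the AHR for Cyp1a, CAR (Nr1i3) for Cyp2b and PXR (Nr1i2) for Cyp3a. In rats several Cyp2c and Cyp3a genes also differ between the sexes under the control of growth hormone, and cultured hepatocytes are known for losing P450 transcripts after isolation.

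The arrays had medians of 5.53 to 5.61 on the log2 scale. TMAO replicate 3 lay apart from the other 5 on the first principal component, so the value without it is given for each member that it moved by more than 0.1 log2 units, which were 15 of the 36. Other arrays moved members too, and no such count is given for them. The Cyp2c22 difference of 0.03, for example, came to 0.54 without TMAO replicate 1 and to -0.35 without Control replicate 1. Averaged over members above background, TMAO replicate 1 lay farthest from the gene means (-0.19, against 0.13 for TMAO replicate 3). All 5 measured hepatocyte markers of 6 listed had a signal above background, with summed log2 levels of 13.47 to 13.62 in Control and 13.40 to 13.56 under TMAO. Of the markers of other liver cells, 3 of 6 for macrophages, 1 of 5 for endothelial cells, 3 of 5 for stellate cells and fibroblasts and all 3 measured for cholangiocytes were above background. The summed macrophage level was 8.07 to 8.42 in Control and 7.89 to 8.04 under TMAO, without overlap, whereas the summed levels of the other 3 lists overlapped. Of the 6 macrophage markers, Cd163 was the only 1 whose groups did not overlap, and those of Cd68, the brightest, did overlap. The part of other liver cells in any P450 value was not tested. In such bulk samples fewer cells of a type and less RNA per cell cannot be told apart.

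No P450 gene of families 1 to 3 differed between TMAO-treated and untreated hepatocytes at an adjusted p under 0.05 (limma, Benjamini-Hochberg over all 15037 genes). The count was 0 of 36, against 0.0266% of all named genes, and the adjusted p of the members lay between 0.918 and 0.997. At an unadjusted p under 0.05 the count was also 0 of 36, against 5.49% of all named genes, the lowest p being 0.0520 for Cyp2d2. Means were higher under TMAO for 13 members and lower for 23, where 51% of all named genes were lower. The median difference was -0.06 over the 36 members and -0.0035 over all named genes. Cyp2d2 was the only one of the 36 whose groups did not overlap, against 10.8% of all named genes.

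The 36 genes fell into 24 with a signal and 12 near background. The dividing line was a mean of 4.95 over the 6 arrays, which is 1 log2 unit over the median signal of the 1153 negative control probe sets. Cyp2b15, at 5.09, lay just above it and Cyp3a62, at 4.94, just below. The negative controls themselves spread widely, with a 95th percentile of 7.26, and only 7 members had means above that value, namely Cyp2c23, Cyp2d1, Cyp2c22, Cyp2d5, Cyp2j4, Cyp2d2 and Cyp1a2. Signals of different probe sets are not levels that can be set against each other, so each gene is compared only with itself across arrays. Genes of 1 subfamily can be similar in coding sequence, which was not compared here, and how far their probe sets share signal was not tested.

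**Figure D1:**
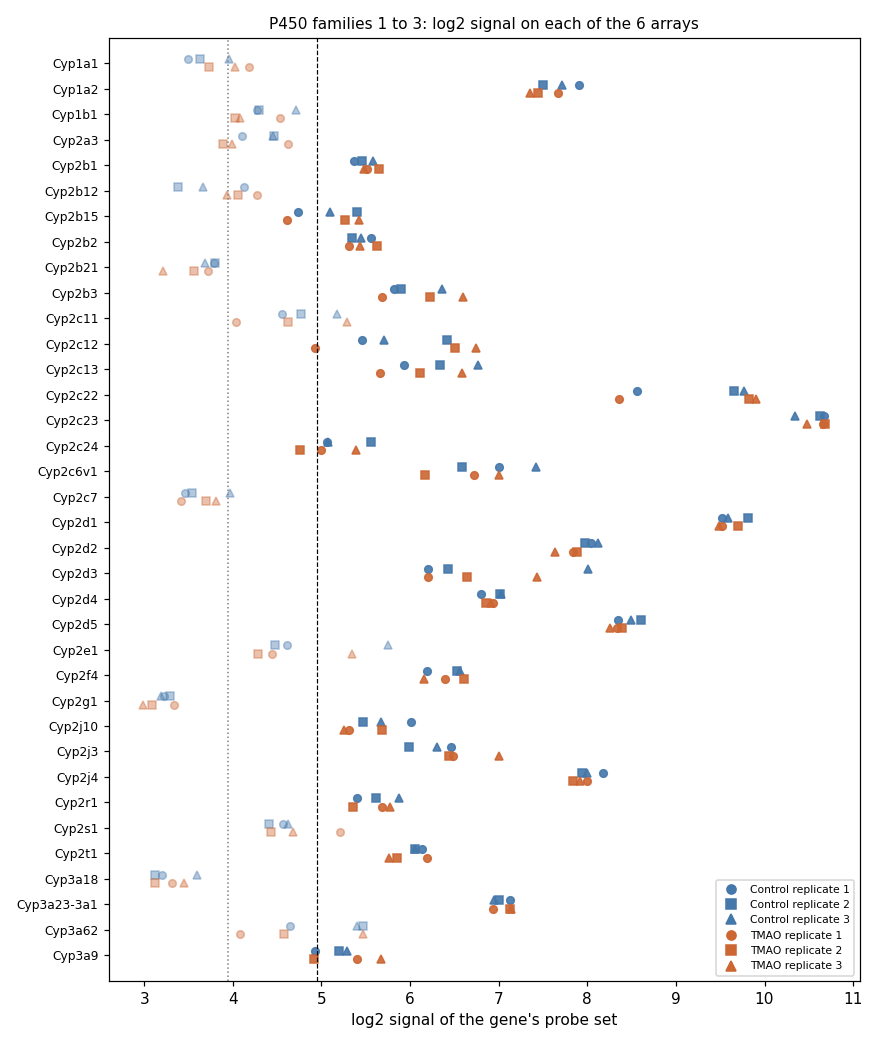
Each row is a gene and each point its log2 signal (horizontal axis) on 1 array, with Control in blue and TMAO in orange and the replicate number shown by the shape. The dotted line is the median of the negative controls (3.95) and the dashed line the limit of 4.95. The 12 genes with means below the limit are drawn pale, and Cyp2d2 is the only row whose colours do not overlap.

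Family 1 holds the classical AHR targets. Cyp1a2, which oxidises caffeine and aromatic amines, had log2 signals of 7.91, 7.50 and 7.72 on Control replicates 1 to 3 and of 7.67, 7.44 and 7.35 under TMAO. The groups overlapped, and the difference was -0.22 ± 0.14 (SE), with a 95% interval of -0.54 to 0.10 and an adjusted p of 0.963. Cyp1a1, the most inducible of the AHR targets, lay near the negative controls on all arrays, at 3.49, 3.63 and 3.96 in Control and 4.18, 3.74 and 4.02 under TMAO. Cyp1b1, an oestradiol hydroxylase found mainly outside hepatocytes, was also near background, with means of 4.42 and 4.21. The receptor gene Ahr itself had a difference of 0.14 ± 0.17 and came to -0.05 without TMAO replicate 3. Of 6 listed AHR targets outside the P450s 2 were measured, and 0 passed the adjusted threshold.

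The Cyp2d subfamily, whose rat members include the debrisoquine hydroxylases, was the only subfamily with more than 1 member in which all members had a signal and a lower mean under TMAO, 5 of 5, with differences of -0.26 to -0.05. None of these differences passed the test. The 5 signs were the same with quantile normalization and median centring, but that of Cyp2d1 turned without Control replicate 2 (0.02) and that of Cyp2d3 without Control replicate 3 (0.44) or TMAO replicate 1 (0.16). Shared signs were also seen elsewhere, as the 4 Cyp2b and 2 Cyp3a members with a signal all had higher means under TMAO. Those of Cyp2c and Cyp2j went both ways.

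Cyp2d2 (probe set TC0700003579.rn.2) had log2 signals of 8.04, 7.98 and 8.12 in Control and 7.84, 7.88 and 7.64 under TMAO. All 3 TMAO arrays were below all 3 Control arrays. The difference was -0.26 ± 0.12, a 1.197-fold change, with a 95% interval of -0.52 to 0.0028 and an adjusted p of 0.918. It came to -0.18 without TMAO replicate 3, which had the lowest value.

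Cyp2d5 read 8.35, 8.61 and 8.49 in Control and 8.33, 8.39 and 8.25 under TMAO, a difference of -0.16 ± 0.12. Cyp2d1, a debrisoquine hydroxylase, read 9.52, 9.81 and 9.58 in Control and 9.52, 9.70 and 9.49 under TMAO, a difference of -0.07 ± 0.12. In both genes replicate 2 was the highest array of its group, and the groups overlapped. Cyp2d4, a form also found in brain, varied least of the 5, from 6.81 to 7.03 over the 6 arrays, with a difference of -0.05 ± 0.11.

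Cyp2d3 behaved otherwise. Its signals were 6.21, 6.42 and 8.01 on Control replicates 1 to 3 and 6.20, 6.65 and 7.43 on TMAO replicates 1 to 3. Replicate 3 was thus the highest array of both groups, and the range over the 6 arrays was 1.81, against 0.22 to 0.48 for the other 4 Cyp2d genes. The difference between the groups was -0.12 ± 0.45, with a 95% interval of -1.15 to 0.90 that reached a 2.21-fold change. Without TMAO replicate 3 it came to -0.46.

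Cyp2d3 and its neighbour Cyp2d1 have promoters that are nearly the same. The 250 bases before both starts are shown, from RefSeq on the GRCr8 assembly. This pair was picked after the spread of Cyp2d3 was seen, and a link between promoter and spread was not tested. Capitals mark bases that differ or have no partner when the pair is aligned. Leaving out the unpaired ends, 91.9% of 246 aligned positions were identical. Both hold 1 TATAAA motif, which lies on the opposite strand and reads TTTATA in the sequences shown. By the same measure Cyp2d1 and Cyp2d5, not shown, had 93.5% identity over 215 positions, and Cyp2d3 and Cyp2d5 had 82.0%.
Cyp2d1 (chr7:115793431-115793680, minus strand): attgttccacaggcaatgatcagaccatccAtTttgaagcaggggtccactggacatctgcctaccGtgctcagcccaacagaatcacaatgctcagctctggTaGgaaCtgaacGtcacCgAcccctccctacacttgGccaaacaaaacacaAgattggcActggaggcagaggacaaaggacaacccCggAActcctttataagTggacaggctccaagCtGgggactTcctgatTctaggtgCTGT
Cyp2d3 (chr7:115802143-115802392, minus strand): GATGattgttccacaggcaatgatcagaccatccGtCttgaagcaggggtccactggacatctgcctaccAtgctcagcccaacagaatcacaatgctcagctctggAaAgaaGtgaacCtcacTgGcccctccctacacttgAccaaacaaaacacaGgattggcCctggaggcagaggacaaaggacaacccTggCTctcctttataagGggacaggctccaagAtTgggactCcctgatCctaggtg
Cyp2d2 is shown as the only member whose groups did not overlap. Its promoter is unlike those of Cyp2d1 and Cyp2d3, with 42.9% identity to each. Capitals mark its match to TTGCNNAA, a core of sites bound by C/EBP factors. A link between this match and the Cyp2d2 signal was not tested.
Cyp2d2 (chr7:115819282-115819531, minus strand): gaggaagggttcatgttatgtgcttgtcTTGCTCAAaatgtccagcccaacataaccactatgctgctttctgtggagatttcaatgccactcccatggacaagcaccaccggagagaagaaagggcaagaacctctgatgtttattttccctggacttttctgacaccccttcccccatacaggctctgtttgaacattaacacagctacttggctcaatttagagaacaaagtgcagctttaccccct

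Several of the 8 Cyp2c genes varied widely between arrays. Cyp2c22, a retinoic acid hydroxylase of rat liver, had signals of 8.56, 9.65 and 9.77 in Control and 8.36, 9.83 and 9.90 under TMAO. Replicate 1 was about 1 log2 unit or more below the other arrays in both groups, and the difference between the groups was 0.03 ± 0.43, which came to -0.24 without TMAO replicate 3. Cyp2c12, the female-specific form of rat liver, read 5.45, 6.42 and 5.71 in Control and 4.92, 6.50 and 6.75 under TMAO, a difference of 0.20 ± 0.43. Here replicate 1 was again the lowest array of each group. The Cyp2c12 difference turned to -0.15 without TMAO replicate 3, and was also below 0 without TMAO replicate 2 (-0.02) and without Control replicate 1 (-0.0047). Without TMAO replicate 1 it came to 0.77 at an unadjusted p of 0.0169 and an adjusted p of 0.890, and it was then the only member past 1.5-fold at an unadjusted p under 0.05.

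The male-specific forms did not part by treatment either. Cyp2c13 read 5.93, 6.34 and 6.76 in Control and 5.67, 6.11 and 6.59 under TMAO. In each group replicate 1 was the lowest and replicate 3 the highest, and the difference was -0.22 ± 0.26, or -0.46 without TMAO replicate 3. Cyp2c11, the principal P450 of adult male rat liver, lay below the limit, with 4.56, 4.77 and 5.17 in Control and 4.04, 4.62 and 5.28 under TMAO. Its 2 replicate 3 arrays were above the limit and the other 4 below it, and its difference of -0.19 ± 0.28 came to -0.50 without TMAO replicate 3.

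Cyp2c6v1, a constitutive form also raised by phenobarbital, had 7.01, 6.59 and 7.42 in Control and 6.72, 6.16 and 6.9997 under TMAO. In both groups replicate 3 was the highest and replicate 2 the lowest, and the difference of -0.38 ± 0.25 had an adjusted p of 0.963. It came to -0.56 without TMAO replicate 3. Over all single arrays left out, the lowest value was -0.58, when Control replicate 2 was dropped, and the highest -0.14, when TMAO replicate 2 was. Cyp2c23, an arachidonic acid epoxygenase, was steady by comparison, at 10.67, 10.63 and 10.34 in Control and 10.66, 10.69 and 10.48 under TMAO. Its difference was 0.06 ± 0.13, and its 95% interval of -0.23 to 0.35 holds no change beyond 1.28-fold. Cyp2c24 had a difference of -0.18 ± 0.19, which came to -0.35 without TMAO replicate 3. Cyp2c7, a retinoid hydroxylase higher in females, stayed near background with a mean of 3.65.

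**Figure D2:**
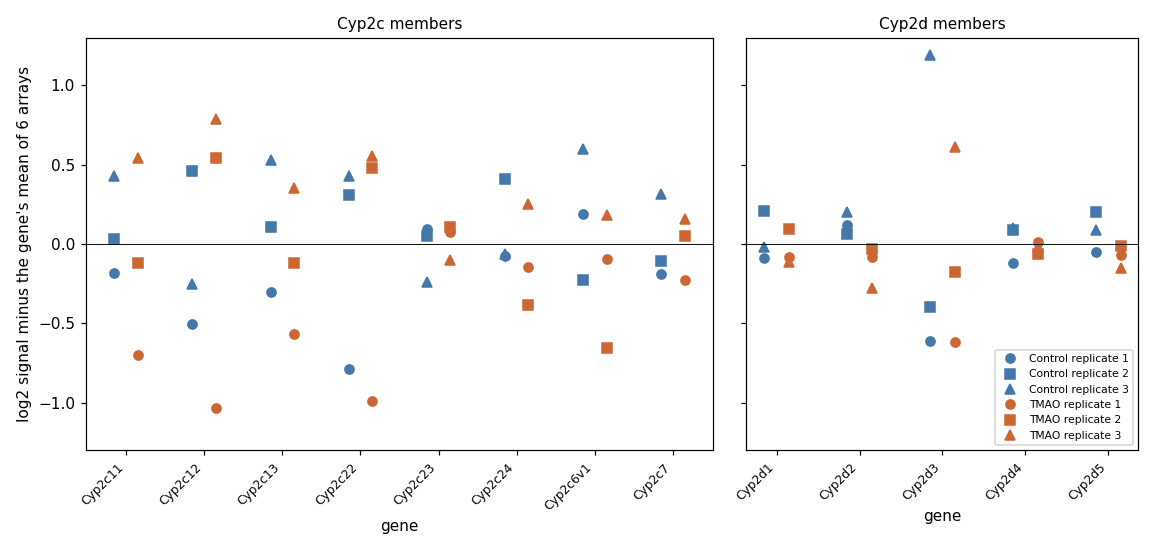
The vertical axis is each gene's log2 signal minus its mean of 6 arrays, for the 8 Cyp2c and 5 Cyp2d genes along the horizontal axis. Control is blue, TMAO is orange and the shape gives the replicate number. In Cyp2c22, Cyp2c13 and Cyp2d3 arrays of the same number lie together in both colours, with replicate 1 lowest, while Cyp2c23, Cyp2d1, Cyp2d2, Cyp2d4 and Cyp2d5 stay near 0.

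Over the 24 members with a signal the median SD within groups was 0.22, against 0.16 for all 9951 named genes above the same limit. 3 of the 24, Cyp2d3 (0.82), Cyp2c12 (0.78) and Cyp2c22 (0.78), had an SD above 0.5, which is 12.5% of them, against 0.713% of all named genes above the limit. Above the limit, 1 of 10 PXR and CAR targets outside these families also had an SD above 0.5, and their median was 0.27. The share was 4.17% for UGT, SULT and GST genes and 0% for other P450 families and for regulators and electron donors. The replicate with the highest signal had the same number in both groups for 12 of the 24 members and for 37.5% of all named genes above the limit. For regulators and electron donors this share was 55.9%, and for other P450 families 28.6%. The value of 0.5 was picked after the spreads were seen, and these shares describe the arrays with no test.

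**Figure D3:**
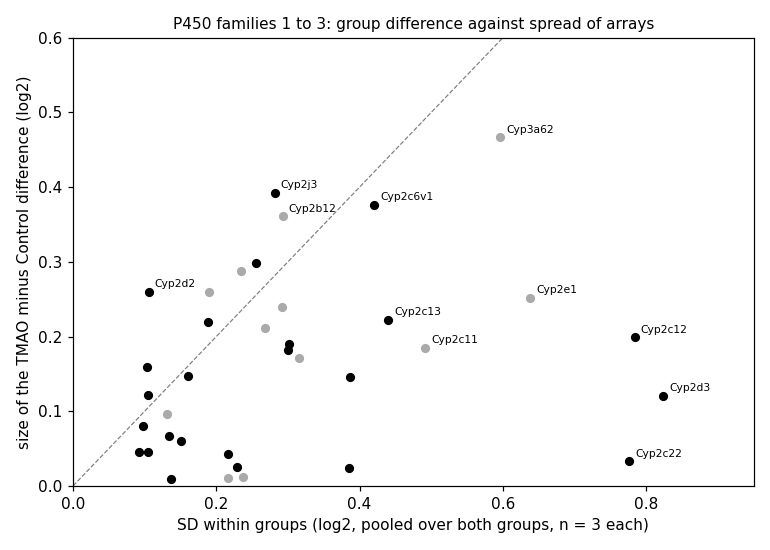
Each point is a gene, with the SD within groups (log2, pooled over both groups, n = 3 each) on the horizontal axis and the size of the difference between the groups on the vertical axis. Black points are the 24 genes with a signal and grey points the 12 near background, and on the dashed line the difference equals the SD. Cyp2d2 lies farthest above the line in proportion, and Cyp2d3, Cyp2c12 and Cyp2c22 lie far below it.

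The Cyp2b genes include the classical targets of phenobarbital through CAR. Cyp2b1 read 5.36, 5.46 and 5.58 in Control and 5.52, 5.64 and 5.48 under TMAO, a difference of 0.08 ± 0.11. Cyp2b2 read 5.56, 5.35 and 5.44 in Control and 5.31, 5.63 and 5.43 under TMAO, a difference of 0.01 ± 0.13. The groups overlapped for both, and their 95% intervals reached at most 1.26-fold and 1.22-fold.

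What the Cyp2b1 probe set measures is uncertain. Its identifier, TC0700001172.rn.2, carries the number 7, whereas RefSeq places Cyp2b1 on chromosome 1, and for every other member that number matched the chromosome. The promoters of this pair of neighbouring genes are shown because they are closely alike. Leaving out unpaired ends, 225 of 250 alignment columns (90.0%) were identical, and capitals mark the bases that differ or have no partner. The columns that were not identical include a run of Cyp2b2 bases near its end that have no partner. Both hold 1 match to GCGTG, the core of sites bound by the AHR, and 1 to TTGCNNAA.
Cyp2b1 (chr1:90645869-90646118, plus strand): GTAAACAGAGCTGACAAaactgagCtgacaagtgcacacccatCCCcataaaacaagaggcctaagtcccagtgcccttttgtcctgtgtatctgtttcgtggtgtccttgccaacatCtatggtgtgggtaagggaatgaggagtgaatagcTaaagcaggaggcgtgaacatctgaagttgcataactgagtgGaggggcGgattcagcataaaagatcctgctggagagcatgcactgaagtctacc
Cyp2b2 (chr1:90722031-90722280, plus strand): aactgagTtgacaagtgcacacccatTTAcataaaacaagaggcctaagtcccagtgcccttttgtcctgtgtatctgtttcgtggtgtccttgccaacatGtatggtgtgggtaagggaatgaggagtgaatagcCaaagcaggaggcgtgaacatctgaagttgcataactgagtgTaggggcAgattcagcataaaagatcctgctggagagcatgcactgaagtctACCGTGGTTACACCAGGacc

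Cyp2b3, which phenobarbital does not induce, read 5.81, 5.90 and 6.36 in Control and 5.68, 6.22 and 6.60 under TMAO, with replicate 1 lowest and replicate 3 highest in both groups. Its difference was 0.15 ± 0.23 and came to -0.07 without TMAO replicate 3. Cyp2b15, of skin, had 0.02 ± 0.23, and -0.14 without TMAO replicate 3. Cyp2b12 and Cyp2b21, known from skin and oesophagus, were near background, with means of 3.91 and 3.63, and the difference of Cyp2b21, -0.26 ± 0.14, came to -0.12 without TMAO replicate 3. The CAR gene Nr1i3 had a difference of -0.04 ± 0.11.

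The Cyp2j genes make epoxides of arachidonic acid. Cyp2j3 had the largest positive difference of the members, with 6.46, 5.99 and 6.30 in Control and 6.49, 6.44 and 7.01 under TMAO. The lowest TMAO array lay just below the highest Control array, and TMAO replicate 3 was well above the rest. The difference was 0.39 ± 0.18, or 1.31-fold, with an adjusted p of 0.938, and it came to 0.21 without TMAO replicate 3. Cyp2j10 went the other way, with 6.01, 5.46 and 5.67 in Control and 5.31, 5.68 and 5.26 under TMAO. Its difference was -0.30 ± 0.17, and TMAO replicate 2 lay within the Control range. Cyp2j4, a form also abundant in intestine, read 8.18, 7.94 and 7.996 in Control and 7.997, 7.84 and 7.92 under TMAO, a difference of -0.12 ± 0.12 with overlap.

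Among the other genes of family 2, Cyp2r1, a vitamin D 25-hydroxylase, had a difference of -0.03 ± 0.16. Cyp2f4, a naphthalene-oxidising form of lung, had one of -0.04 ± 0.15, which came to 0.07 without TMAO replicate 3, and Cyp2t1 one of -0.15 ± 0.13. The groups overlapped for each. Cyp2e1, which oxidises ethanol and paracetamol, lay below the limit on average, with 4.61, 4.47 and 5.75 in Control and 4.44, 4.29 and 5.35 under TMAO. Only its 2 replicate 3 arrays were above the limit, and the difference of -0.25 ± 0.36 came to 0.15 without Control replicate 3 and to -0.58 without TMAO replicate 3. Cyp2a3, Cyp2g1 and Cyp2s1, forms found mainly outside the liver, had means of 4.25, 3.18 and 4.65.

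In family 3, Cyp3a23-3a1, the form induced by dexamethasone through PXR, read 7.13, 7.002 and 6.95 in Control and 6.94, 7.13 and 7.14 under TMAO. It varied by 0.21 over all 6 arrays, with a difference of 0.04 ± 0.12 and a 95% interval within 1.24-fold. Cyp3a9, a form higher in females, read 4.93, 5.200 and 5.28 in Control and 5.40, 4.91 and 5.67 under TMAO. Its difference of 0.19 ± 0.19 came to 0.02 without TMAO replicate 3.

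Cyp3a62 had the most negative difference of the members, -0.47 ± 0.34, but its mean lay just below the limit, with 4.64, 5.47 and 5.40 in Control and 4.08, 4.57 and 5.47 under TMAO. TMAO replicate 3 was as high as the highest Control array. Without it the difference was -0.85 at an unadjusted p of 0.0139 and an adjusted p of 0.943, which made Cyp3a62 the only member past 1.5-fold at an unadjusted p under 0.05 in that setting. Without TMAO replicate 1 the difference was -0.15, at an adjusted p of 0.985. Cyp3a18, a form higher in males, lay below the negative control median, with a mean of 3.30. The PXR gene Nr1i2 read 6.56, 6.20 and 6.26 in Control and 6.22, 6.10 and 6.03 under TMAO, a difference of -0.22 ± 0.13. Of 18 listed targets of PXR and CAR outside these families 13 were measured and 0 passed the adjusted threshold. Abcb1a, a drug efflux pump named after its value was seen, was the only one of the 13 with an unadjusted p under 0.05 (difference of 0.34 ± 0.14, adjusted p of 0.909), which is 7.69% of them against 5.49% of all named genes.

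With all 6 arrays, 0 of the 36 members combined a change of 1.5-fold or more with an unadjusted p under 0.05, against 0.658% of all named genes. The 95% intervals put bounds on differences in array signal that could have gone unseen. How far signal followed transcript level near background was not tested. For 14 of the 24 members with a signal the whole interval lay within a 1.5-fold change in either direction. With members near background included, this held for 18 of the 36. The 14 include Cyp2b1, whose probe set is uncertain, and others below the 95th percentile of the negative controls, such as Cyp2b2 and Cyp2d4. For Cyp2c12, Cyp2c22 and Cyp2d3 the interval reached 2.26-fold, 2.003-fold and 2.21-fold. An interval that includes 0 does not show that a gene was unaffected.

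**Figure D4:**
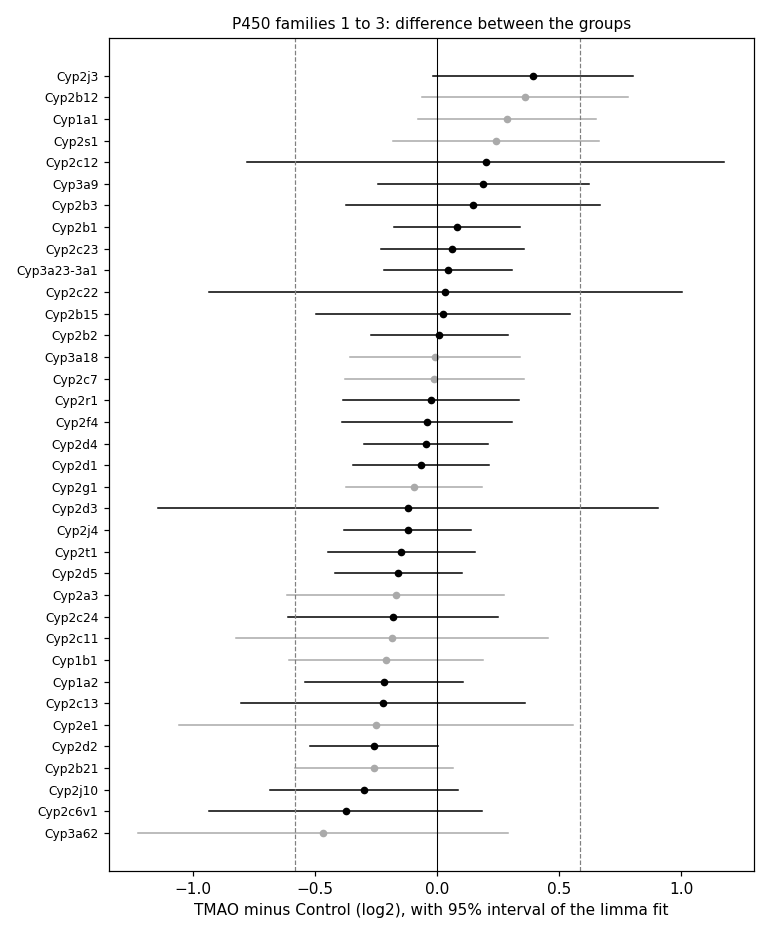
Each row is a gene, the point its TMAO minus Control difference on the log2 scale (horizontal axis) and the bar the 95% interval of the limma fit. Black rows are the 24 genes with a signal and grey rows the 12 near background, and the dashed lines mark 1.5-fold. All 36 bars cross 0, and those of Cyp2d3, Cyp2c12, Cyp2c22 and Cyp2e1 are the widest.

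The machinery that serves these enzymes was measured through 37 of 41 listed genes for electron supply, heme, receptors and liver transcription factors. 0 of the 37 passed the adjusted threshold, 15 had higher and 22 lower means, and the median difference was -0.02. Por, the reductase, read 7.81, 7.89 and 7.82 in Control and 7.94, 7.99 and 7.96 under TMAO. All 3 TMAO arrays were higher, by a difference of 0.12 ± 0.10 with an adjusted p of 0.967. Cyb5a, cytochrome b5, had 8.61, 8.54 and 8.29 in Control and 8.16, 8.29 and 8.20 under TMAO. Its groups met at 8.29 without overlapping, and the difference was -0.26 ± 0.12 with an adjusted p of 0.938. Of the 37 genes, 3 with higher and 4 with lower means had groups without overlap, against 10.8% of all named genes.

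The lowest unadjusted p in each direction belonged to Rxra, the partner receptor of CAR and PXR, and to Foxa3, a liver transcription factor. Rxra read 7.46, 7.44 and 7.24 in Control and 7.17, 7.13 and 7.03 under TMAO, a difference of -0.27 ± 0.11 without overlap. Foxa3 had a difference of 0.44 ± 0.19 with overlap, and it came to 0.27 without TMAO replicate 3. Both had an adjusted p of 0.909.

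RefSeq promoters were matched for 34 of the 36 members. A TTGCNNAA match on either strand stood in the 250 bases before the start of 13 of the 34 (38.2%), against 9.2% of all 27457 promoters of that length. AGGTCA, the repeat unit of nuclear receptor sites, stood in 11 (32.4%), against 13.7%, TATAAA in 13 (38.2%), against 13.1%, and CCAAT in 17 (50.0%), against 34.3%. GCGTG stood in 5 (14.7%), against 27.2%. Matches of different motifs shared bases in 1 member, Cyp2c7. Paralogous promoters share descent, the shares carry no test, and a match is no proof of a bound site.

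Beside the 36 members, the 29 genes of other P450 families had a median difference of -0.03 and the 40 UGT, SULT and GST genes of drug conjugation one of -0.05. 0 genes of either group passed the adjusted threshold, and at an unadjusted p under 0.05 there were 1 and 2 genes, all with lower means, which is 3.45% and 5% of them against 5.49% of all named genes. Whether these groups differ from families 1 to 3 was not tested.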

How the data were processed

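The values were the authors' deposited log2 signals, 1 per probe set and array. How background, normalization and summary were done is not given in the sources used here. Limma appears in the submitters' processing notes without a version or role. A second deposited table has 6 numbered columns that no label ties to samples, and these 6 columns were not used.

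Of 24871 probe sets 1683 were controls. Among the other 23188, 15049 had 1 gene symbol in the platform annotation and 8139 had none and were not used. The probe set with the highest mean stood for each of 10 genes with several, leaving 15037 genes. TMAO was compared with Control by limma 3.58.1 (R 4.3.3, lmFit and eBayes, group as the only term, two-sided), with Benjamini-Hochberg adjustment over all 15037 genes and a threshold of 0.05. Errors are SE of the fit unless called SD. The number of arrays limits the precision.

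The members and lists were chosen with earlier results of these data known. All 36 members were described. Values by array were given to the 6 members above the limit with the highest means, to the 5 per direction with the smallest unadjusted p, to textbook sex-specific or inducible forms, and, chosen after their values were seen, to Cyp2d3 and Cyp3a62 and to Abcb1a outside the members. Named from the regulator list were Por, Cyb5a, Ahr, Nr1i2, Nr1i3 and the gene of smallest p in each direction. Promoters came from RefSeq (GRCr8), matched through gene identifiers and aligned with Biopython 1.88. Probe sets carry no coordinates here, since no genome build is stated for them. Alternatives were quantile normalization, median centring, a filter on dim genes, array weights, trend and robust estimation, averaging of probe sets per gene, a replicate block, leaving out each array and other limits for a signal.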

Additional observations from a re-analysis of the deposited data

How the results depend on the processing

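The count of 0 members and of 0 regulators past the adjusted threshold held under all 13 alternative fits. Of these, averaging of probe sets could not change a member's difference, since each member has 1 probe set. The count past 1.5-fold at an unadjusted p under 0.05 was 0 and became 1 with array weights (Cyp3a62, -0.71, adjusted p of 0.597), and ran from 0 to 1 with an array left out, the 1 being Cyp2c12 without TMAO replicate 1 and Cyp3a62 without TMAO replicate 3. The median of the members with a signal was -0.04 and ran from -0.13 without Control replicate 1 to -0.00014 without Control replicate 3. The 24 members with a signal became 7 with the limit at the 95th percentile of the negative controls.

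Signs of small differences were not stable. With array weights they turned for Cyp2b15 (-0.13), Cyp2c12 (-0.12), Cyp2c22 (-0.11), Cyp2c7 (0.026), Cyp2f4 (0.0099) and Cyp3a18 (0.036), and with quantile normalization for Cyp2c7 (0.0023). With 1 array left out, differences that turned ran from -0.15 to 0.27 for Cyp2b15, -0.077 to 0.082 for Cyp2b2, -0.071 to 0.39 for Cyp2b3, -0.50 to 0.12 for Cyp2c11, -0.15 to 0.77 for Cyp2c12, -0.46 to 0.0061 for Cyp2c13, -0.35 to 0.54 for Cyp2c22, -0.043 to 0.13 for Cyp2c23, -0.11 to 0.14 for Cyp2c7, -0.13 to 0.019 for Cyp2d1, -0.46 to 0.44 for Cyp2d3, -0.58 to 0.15 for Cyp2e1, -0.16 to 0.069 for Cyp2f4, -0.14 to 0.10 for Cyp2r1, -0.10 to 0.13 for Cyp3a18, -0.047 to 0.29 for Ahr and -0.094 to 0.011 for Nr1i3. The cause was not tested.

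Deviations of same-numbered arrays from their group means correlated across all genes by 0.13, 0.10 and -0.01, which does not meet the rule for pairing, and numbers 1 and 2 but not 3 correlated best with their own. Across the 36 members, which are not independent and were measured on the same arrays, the correlations were 0.64, 0.47 and 0.57, each the highest for its number. With the replicate block 0 members passed the adjusted threshold. The SE was smaller for 27 of 36, a count not made over all genes. It fell from 0.43 to 0.13 for Cyp2c22 and rose from 0.17 to 0.19 for Cyp2j10. 4 then had an unadjusted p under 0.05 (11.1%, against 5.49% of all named genes in the blocked fit), where 0 had one without it, namely Cyp2c6v1 (-0.38, adjusted p of 0.849), Cyp2b12 (0.36, 0.895), Cyp2j3 (0.39, 0.895) and Cyp3a62 (-0.47, 0.904).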
